A study of Mus musculus with 6 samples.

Results

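The tumour necrosis factor (TNF) superfamily ligands and receptors described here are the 31 gene rows of the aorta tables whose symbol begins with Tnfsf or Tnfrsf followed by a digit, out of 36557 rows in all. They comprise 11 ligands, 16 receptors that pass a signal on, 3 decoy receptors that bind a ligand without a full signalling tail, and Tnfrsf26, for which no class was assigned. RNA was sequenced from aortic arch plus thoracic aorta of Apoe-/- mice fed a high-fat diet for 4 weeks. The control group (Apoe-/- control) held 3 libraries, and the knockout group (Apoe-/- MiR26b-/-) held 3 libraries from animals that lacked the microRNA gene Mir26b in addition. All 6 libraries thus share the Apoe deletion and the diet, under which lipoproteins accumulate in blood and plaque forms in the artery wall. The labels give neither the age of the animals nor whether each library came from its own animal, so the p-values below reflect how far these libraries spread, which may be technical. The promoter or cell type of the deletion is not given there either.

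TNF superfamily ligands are mostly membrane-bound trimers that can be shed, and each cross-links its receptors on a neighbouring cell. Receptors with a death domain can recruit caspases, while the others bind TRAF adaptors and turn on NF-κB transcription factors. In the artery wall the family is known for inflammatory signals between macrophages, endothelium and smooth muscle, for survival of B lymphocytes (BAFF and APRIL), and for the RANKL, RANK and osteoprotegerin axis that controls osteoclasts and is studied in vascular calcification.

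The sequence through which the deleted microRNA finds its targets is shown first, because a member that carries its complement could be bound directly. Mir26b lies on chromosome 1 from 74394310 to 74394394 (GRCm38). Its mature strand is given as RNA with the seed, bases 2 to 8, in capitals, beside miR-26a-5p, which other genes encode and which has the same seed (both from RefSeq, GRCm38.p6).
miR-26b-5p: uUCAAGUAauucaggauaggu
miR-26a-5p: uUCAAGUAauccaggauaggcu
The complement of the seed, TACTTGA, was searched in the longest annotated 3′ UTR of each gene (GENCODE mouse release 21, GRCm38). It was present in 2 of the 31 members, in Tnfsf13b, which encodes BAFF, and in Tnfrsf26. It was present in 9.66% of the 21037 genes with a 3′ UTR. The BAFF site has the 8-base form TACTTGAA, found in 4.18% of genes, and lies at chr8:10037580-10037587 on the plus strand, 2139 bases into a 3′ UTR of 3631 bases. The Tnfrsf26 site has the 7-base form and lies at chr7:143607662-143607668 on the minus strand, near the end of its 2385-base 3′ UTR. Both are printed with up to 10 flanking bases and the match in capitals.
Tnfsf13b: tttaatattgTACTTGAAttctaaacca
Tnfrsf26: aaaaacatttTACTTGAtat
Neither the RANK gene Tnfrsf11a nor the Fn14 gene Tnfrsf12a, the receptors with the lowest adjusted p among members that stood lower in the knockouts, holds the 7-base match in this UTR. A match describes the letters only and does not show binding. The count table holds 0 rows for microRNA genes, so loss of Mir26b itself was not checked here.

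Each library held between 51634139 and 54817547 estimated counts in total. Markers of the labelled tissue were present in every library, the 7 smooth muscle markers (among them Acta2 and Myh11) summing to 31710 to 36431 CPM (counts scaled by TMM to a common library total) in controls and to 21454 to 25441 CPM in knockouts. Markers of some other cells, though not of all, differed between the groups. The 10 macrophage markers summed to 626 to 804 CPM in controls and to 3468, 3834 and 1470 CPM in knockout replicates 1, 2 and 3, and 10 of 10 were called higher. Knockout replicate 3 thus stood nearer to the controls than the other knockouts, and values without it are given for some of the members. White fat markers summed to 771, 767 and 389 CPM in the controls and 204, 342 and 711 CPM in the knockouts, with overlapping groups. In such bulk samples more cells of a type and more RNA per cell cannot be told apart, and the part of cell content in the results below was not tested.

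Levels of the members spanned several orders of magnitude. On the deposited normalized TPM scale, which corrects for transcript length and allows genes to be compared, 3 members stood above 50 TPM in controls. These were Tnfrsf12a, encoding the TWEAK receptor Fn14, at 235 ± 21.3 TPM (SD, n = 3 for all values here), Tnfrsf1a, encoding TNF receptor 1, at 83.7 ± 2.52 TPM, and Tnfsf12, encoding TWEAK, at 72.4 ± 1.81 TPM. The order of the first and second did not depend on the library, since the lowest Tnfrsf12a value in controls (213 TPM) exceeded the highest of Tnfrsf1a (86.6 TPM). A further 11 members lay between 5 and 50 TPM, and 17 lay under 5 TPM, 9 of them under 1 TPM. Among the members between 5 and 50 TPM, Tnfrsf10b, Tnfrsf14, Tnfrsf18 and Tnfrsf1b had control means of 10.9, 10.9, 10.7 and 10.1 TPM, which differ by less than their spread. The member with the fewest counts was Tnfsf4, encoding OX40 ligand, with 2, 3 and 0 counts in the controls and 4, 5 and 3 in the knockouts, and it alone did not pass the low-count filter.

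**Figure D1:**
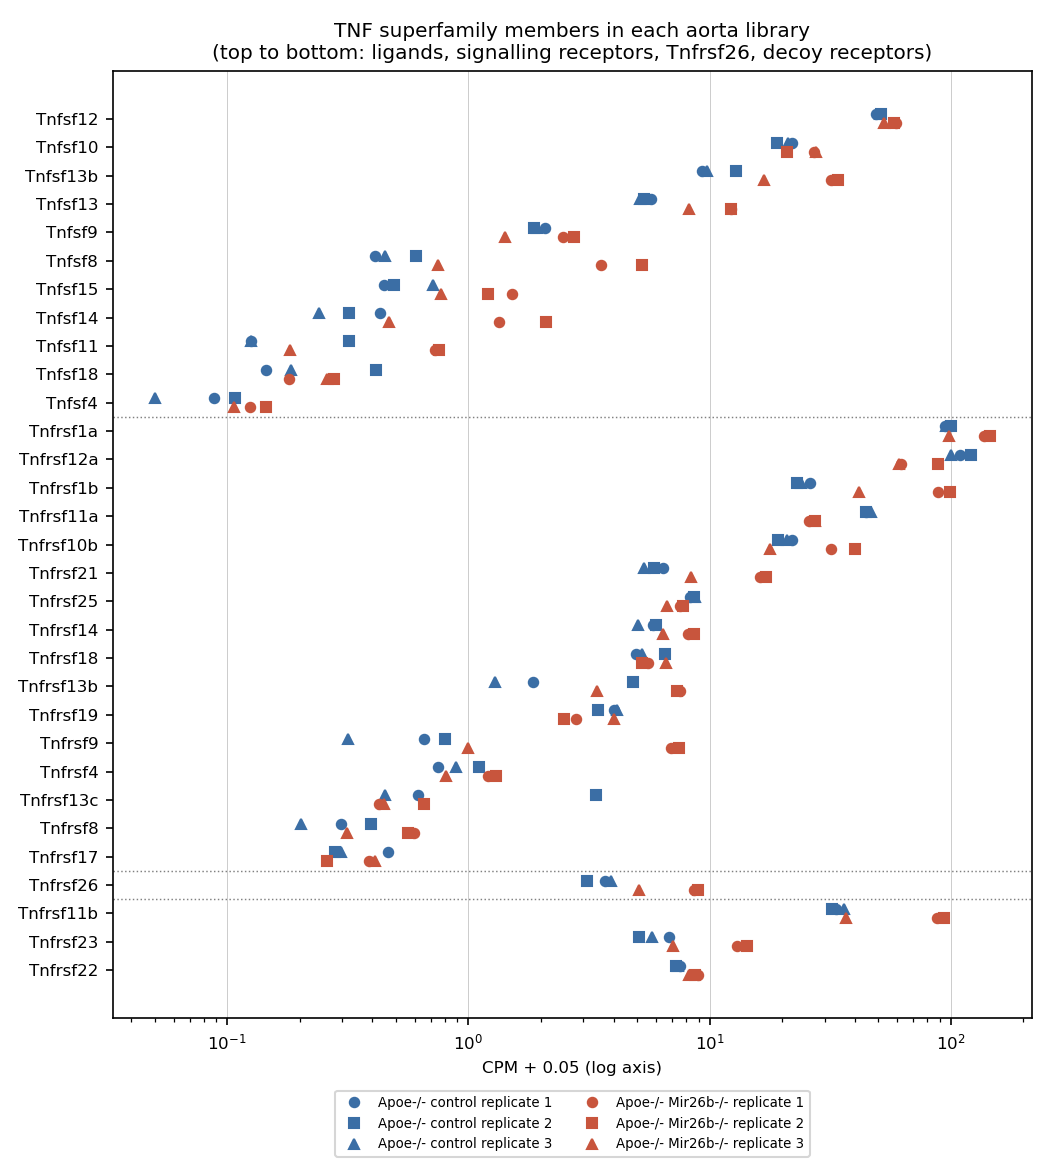
Level of each of the 31 members in each library, as CPM + 0.05 on a log axis; blue symbols are Apoe-/- controls and red symbols Apoe-/- Mir26b-/- knockouts, with the symbol shape giving the replicate number. Red circles and squares (knockout replicates 1 and 2) lie to the right of the blue symbols for Tnfsf13b, Tnfsf13, Tnfrsf1b, Tnfrsf21, Tnfrsf26 and Tnfrsf9, with the red triangle between, while all red symbols of Tnfrsf11a and Tnfrsf12a lie to the left.

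By edgeR's quasi-likelihood test over 17392 genes (Benjamini-Hochberg adjusted p under 0.05), 5 of the 30 tested members rose in the knockouts and 1 fell. Across all tested genes 6.50% were called higher and 3.84% lower. The members that rose were the ligand genes Tnfsf13b (BAFF) and Tnfsf13 (APRIL) and the receptor genes Tnfrsf1b, Tnfrsf21 and Tnfrsf26, and the one that fell was Tnfrsf11a (RANK). A positive difference was found in 24 of the 30 tested members and in 49.4% of all tested genes. The median log2 difference over the 30 tested members was 0.50, against 0.00 over all tested genes. This median leaves out Tnfsf4, and in 4 of the tested members (Tnfrsf8, Tnfsf11, Tnfsf14 and Tnfsf18) fewer than 3 controls reached the level of 0.191 CPM at which the low-count filter works. All knockouts stood above all controls in 14 tested members and below them in 3, where the shares over all tested genes were 18.9% and 17.2%. By role, 2 of 10 tested ligands and 2 of 16 signalling receptors rose, 1 signalling receptor fell, and none of the 3 decoys was called (3 at an unadjusted p under 0.05 by edgeR, and 2 of them called higher by DESeq2).

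The number of calls depended on the libraries kept. Without control replicates 1, 2 and 3 and knockout replicates 1 and 2 in turn, edgeR called 0 members higher (12, 15, 12, 11 and 12 at an unadjusted p under 0.05), where 0.00%, 0.293%, 0.00%, 0.0396% and 0.227% of all genes were called higher, while DESeq2 called 10, 11, 9, 7 and 8 (9.09%, 10.9%, 8.49%, 6.98% and 6.95% of all genes). In those fits 0, 1, 0, 1 and 2 members were called lower (2, 2, 3, 2 and 2 at an unadjusted p under 0.05), beside 0.00%, 0.107%, 0.00%, 0.0283% and 0.125% of all genes. Without knockout replicate 3, edgeR called 16 members higher and 3 lower, against 17.2% and 11.4% of all genes, and DESeq2 called 16 higher against 17.5%.

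The tool mattered as well. DESeq2 on all libraries called 12 members higher and 2 lower (12.7% and 7.98% of all genes), limma-voom 2 and 1 (3.21% and 2.96%), limma on log2(TPM + 1) 1 and 1 (2.65% and 1.44%) and limma on log2(TPM + 0.1) 2 and 1 (3.69% and 1.73%). Scaling by library size alone gave 7 and 1 (8.49% and 2.57%), and no low-count filter 7 and 2 (4.28% and 2.26%). Tnfrsf12a was the second lower member there, and also under median of ratios and upper quartile scaling (3.94% of all genes lower in either) and with a replicate block, which gave 6 and 2 (7.45% and 4.02%). With the level of fat markers as a covariate edgeR called 0 higher (8 at an unadjusted p under 0.05) and Tnfrsf11a lower (0.770% and 0.673% of all genes). With a mean of at least 1 on the log2 CPM scale, or with rows of one symbol summed, Tnfrsf11a alone was lower (5.68% and 3.90% of all genes). APRIL and RANK were the members called by the most of the 13 alternatives that kept every library, 12 and 13.

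**Figure D2:**
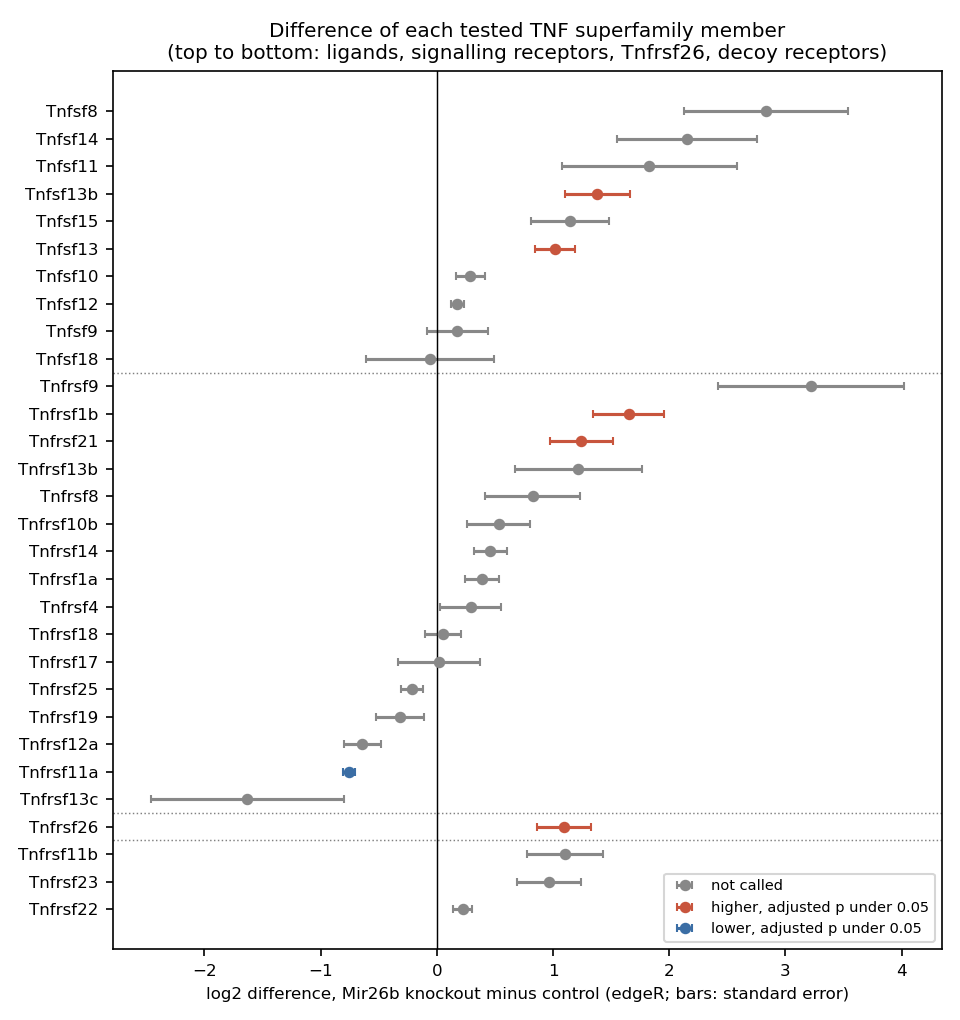
Log2 difference (knockout minus control) of the 30 tested members with its standard error from edgeR, 3 libraries per group; red and blue points passed an adjusted p of 0.05. Most points lie right of 0, with wide bars for the members of low level such as Tnfrsf9 and Tnfsf8, and Tnfrsf11a has the shortest bar.

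BAFF and APRIL, the ligands that keep B cells and plasma cells alive, were both higher. Tnfsf13b (ENSMUSG00000031497, chromosome 8, 10006467 to 10039072), whose 3′ UTR carries the 8-base site printed above, stood at 9.22, 12.9 and 9.70 CPM in the controls and 31.8, 34.2 and 16.8 CPM in the knockouts. All 3 knockouts lay above all controls, knockout replicate 3 being the lowest of them. The rise was 2.60-fold, a log2 difference of 1.38 (SE 0.28, edgeR adjusted p = 0.0361), and 1.64 without knockout replicate 3. Tnfsf13 (ENSMUSG00000089669, chromosome 11, 69682846 to 69685784) stood at 5.69, 5.32 and 5.08 CPM in the controls and 12.2, 12.2 and 8.14 CPM in the knockouts. Groups did not overlap here either, and the 2.03-fold rise had a log2 difference of 1.02 (SE 0.17, edgeR adjusted p = 0.0300). Tnfsf13 and its neighbour Tnfsf12 both lie inside the span of Tnfsfm13, a read-through gene that joins TWEAK and APRIL sequences, and 58.4% and 47.4% of their 31-base words also occur in another gene's transcripts. How reads were divided among these 3 genes is therefore uncertain. Tnfsf13os overlaps both on the other strand, as Gm44789 does Tnfsf13b. Tnfsfm13 itself averaged 20.7 ± 0.621 in controls against 28.8 ± 4.70 CPM in knockouts (log2 difference 0.48, SE 0.12, edgeR adjusted p = 0.0539).

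None of the receptors of these ligands was called by edgeR, and in each the groups overlapped. Tnfrsf13b, encoding TACI, a receptor of B cells for both ligands, stood at 1.80, 4.74 and 1.24 CPM in the controls and 7.47, 7.27 and 3.35 CPM in the knockouts. The groups overlapped through control replicate 2, and the log2 difference was 1.22 (SE 0.55, edgeR adjusted p = 0.190). Tnfrsf13c, the BAFF receptor of mature B cells, stood at 0.567, 3.32 and 0.399 CPM in the controls and 0.374, 0.607 and 0.398 CPM in the knockouts, with its highest value in control replicate 2 and a log2 difference of -1.63 (SE 0.83, edgeR adjusted p = 0.241). Without that library the difference was -0.08. The 7 B cell markers summed to 11.3, 73.1 and 8.37 CPM in the controls and 7.37, 11.5 and 8.86 CPM in the knockouts, so they too were highest in control replicate 2, and their part in the receptor values was not tested. Tnfrsf17, the plasma cell receptor BCMA, stood at 0.416, 0.231 and 0.247 CPM in the controls and 0.337, 0.209 and 0.360 CPM in the knockouts (log2 difference 0.02, SE 0.35, edgeR adjusted p = 0.980), with overlapping groups.

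Of the receptors for TNF itself, the inducible one was higher. Tnfrsf1b (ENSMUSG00000028599, chromosome 4, 145213463 to 145246870) encodes TNF receptor 2, which lacks a death domain and is prominent on leukocytes. It stood at 26.1, 22.9 and 23.8 CPM in the controls and 88.4, 98.8 and 41.7 CPM in the knockouts, with no overlap. The rise was 3.14-fold, a log2 difference of 1.65 (SE 0.30, edgeR adjusted p = 0.0322), and 1.94 without knockout replicate 3. Tnfrsf1a encodes TNF receptor 1, which carries a death domain and is made by most cells. It stood at 94.4, 101 and 95.6 CPM in the controls and 138, 146 and 97.9 CPM in the knockouts, so knockout replicate 3 lay within the range of the controls. Its log2 difference was 0.39 (SE 0.14, edgeR adjusted p = 0.125), and 0.55 without knockout replicate 3 (edgeR adjusted p = 0.00113). On the TPM scale the ratio of Tnfrsf1b to Tnfrsf1a was 0.135, 0.108 and 0.119 in the controls and 0.313, 0.329 and 0.206 in the knockouts, so that TNF receptor 1 remained the more abundant transcript in each library. The ligand gene Tnf averaged 0.325 ± 0.279 in controls against 0.906 ± 0.409 CPM in knockouts (log2 difference 1.48, SE 0.70, edgeR adjusted p = 0.212), and Lta, the other ligand of these receptors, did not pass the low-count filter.

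In the RANK axis the receptor was lower, and the decoy had higher values in part of the knockouts. Tnfrsf11a (ENSMUSG00000026321, chromosome 1, 105780718 to 105847981) encodes RANK, the receptor through which RANKL drives osteoclast formation. It stood at 44.6, 44.4 and 46.7 CPM in the controls and 25.7, 27.3 and 27.2 CPM in the knockouts. Libraries of a group lay close together, and knockout replicate 3 fell between the other knockouts. The fall was 1.69-fold, a log2 difference of -0.76 (SE 0.05, edgeR adjusted p = 0.00683), with calls under all 13 alternatives that kept every library. Without control replicate 1 or control replicate 3 the call was lost (adjusted p of 0.0576 and 0.0524) at log2 differences of -0.76 and -0.73. Tnfrsf11a lies 31.4 Mb from Mir26b on chromosome 1, and whether sequence inherited together with the deletion touches its level was not tested. The other members on that chromosome, Tnfsf4 and Tnfsf18, lie 87.0 and 87.1 Mb from Mir26b and had too few counts for a comparison of this kind.

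Tnfrsf11b encodes osteoprotegerin, the secreted decoy that binds RANKL and keeps it from RANK. It stood at 33.5, 32.2 and 36.1 CPM in the controls and 87.9, 94.1 and 36.9 CPM in the knockouts. Knockout replicates 1 and 2 were far above the controls, while knockout replicate 3 exceeded the highest control by less than the range of the controls. The log2 difference was 1.10 (SE 0.33, edgeR adjusted p = 0.0762), so edgeR did not call it with all libraries (1 of 13 alternatives that kept every library did), and it was 1.42 without knockout replicate 3 (edgeR adjusted p = 0.000245). The TPM ratio of osteoprotegerin to RANK was 1.18, 1.16 and 1.24 in the controls and 4.91, 5.23 and 2.10 in the knockouts, all 3 knockouts above all controls. The ligand RANKL, Tnfsf11, was scarce, with 4, 14 and 4 counts in the controls and 36, 37 and 7 in the knockouts (log2 difference 1.83, SE 0.75, edgeR adjusted p = 0.158). Knockout replicate 3 lay within the control range for this ligand.

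The TWEAK receptor was the most abundant member in both groups on the TPM scale, though not by CPM in the knockouts. It stood lower in the knockouts without passing the test. Tnfrsf12a (ENSMUSG00000023905, chromosome 17, 23675445 to 23677468) encodes Fn14, a small receptor that growth factors and injury induce in vascular cells. It stood at 109, 121 and 99.9 CPM in the controls and 62.1, 88.6 and 60.8 CPM in the knockouts. The groups did not overlap, and knockout replicate 2 was the highest of the knockouts. The log2 difference was -0.64 (SE 0.16, edgeR adjusted p = 0.0516), just over the threshold, and 5 of the 13 alternatives that kept all libraries called it. The 7 smooth muscle markers summed to 31710.0, 31745 and 36431 CPM in the controls and 22925, 21454 and 25441 CPM in the knockouts and were also lower in the knockouts, and their part in the Fn14 value was not tested. Its ligand TWEAK, Tnfsf12, differed little, standing at 49.1, 51.1 and 51.0 CPM in the controls and 59.5, 58.3 and 53.0 CPM in the knockouts (log2 difference 0.18, SE 0.06, edgeR adjusted p = 0.0959), although all knockouts lay above all controls.

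TRAIL and its signalling receptor were not called by edgeR with all libraries, whereas a neighbour of the decoy genes was. Tnfsf10, the death ligand TRAIL, stood at 21.9, 18.9 and 21.1 CPM in the controls and 27.1, 20.8 and 27.7 CPM in the knockouts. Here knockout replicates 1 and 3 were the high ones and knockout replicate 2 lay among the controls (log2 difference 0.29, SE 0.12, edgeR adjusted p = 0.169). Tnfrsf10b, the mouse death receptor for TRAIL, stood at 21.9, 19.1 and 20.8 CPM in the controls and 31.7, 39.98 and 17.7 CPM in the knockouts, with knockout replicate 3 below every control (log2 difference 0.53, SE 0.27, edgeR adjusted p = 0.242). Without knockout replicate 3 the log2 difference of Tnfrsf10b was 0.80 (edgeR adjusted p = 0.00389). The decoy receptor genes Tnfrsf22 and Tnfrsf23 lie side by side with Tnfrsf26 on chromosome 7. Tnfrsf26 (ENSMUSG00000045362, chromosome 7, 143607659 to 143628722), which carries the 7-base site, stood at 3.65, 3.05 and 3.84 CPM in the controls and 8.55, 8.94 and 5.06 CPM in the knockouts. The groups did not overlap, and it rose 2.14-fold, a log2 difference of 1.10 (SE 0.24, edgeR adjusted p = 0.0397).

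Tnfrsf23 stood at 6.75, 5.05 and 5.71 CPM in the controls and 13.0, 14.2 and 7.01 CPM in the knockouts, knockout replicate 3 exceeding control replicate 1 by little. Its log2 difference was 0.97 (SE 0.27, edgeR adjusted p = 0.0680), and 1.22 without knockout replicate 3 (edgeR adjusted p = 0.00180). Tnfrsf22 stood at 7.48, 7.22 and 7.34 CPM in the controls and 8.87, 8.67 and 8.16 CPM in the knockouts, with a log2 difference of 0.22 (SE 0.08, edgeR adjusted p = 0.128). These decoy genes are close copies, sharing 1033 of their 31-base words with each other (38.5% and 28.5% of their words occur in some other gene), so the split of reads between them is uncertain. For Tnfrsf26 that share was 3.83%. All 3 genes also overlap E230032D23Rik on the other strand, and strandedness of the libraries is not given in the sources used here.

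**Figure D3:**
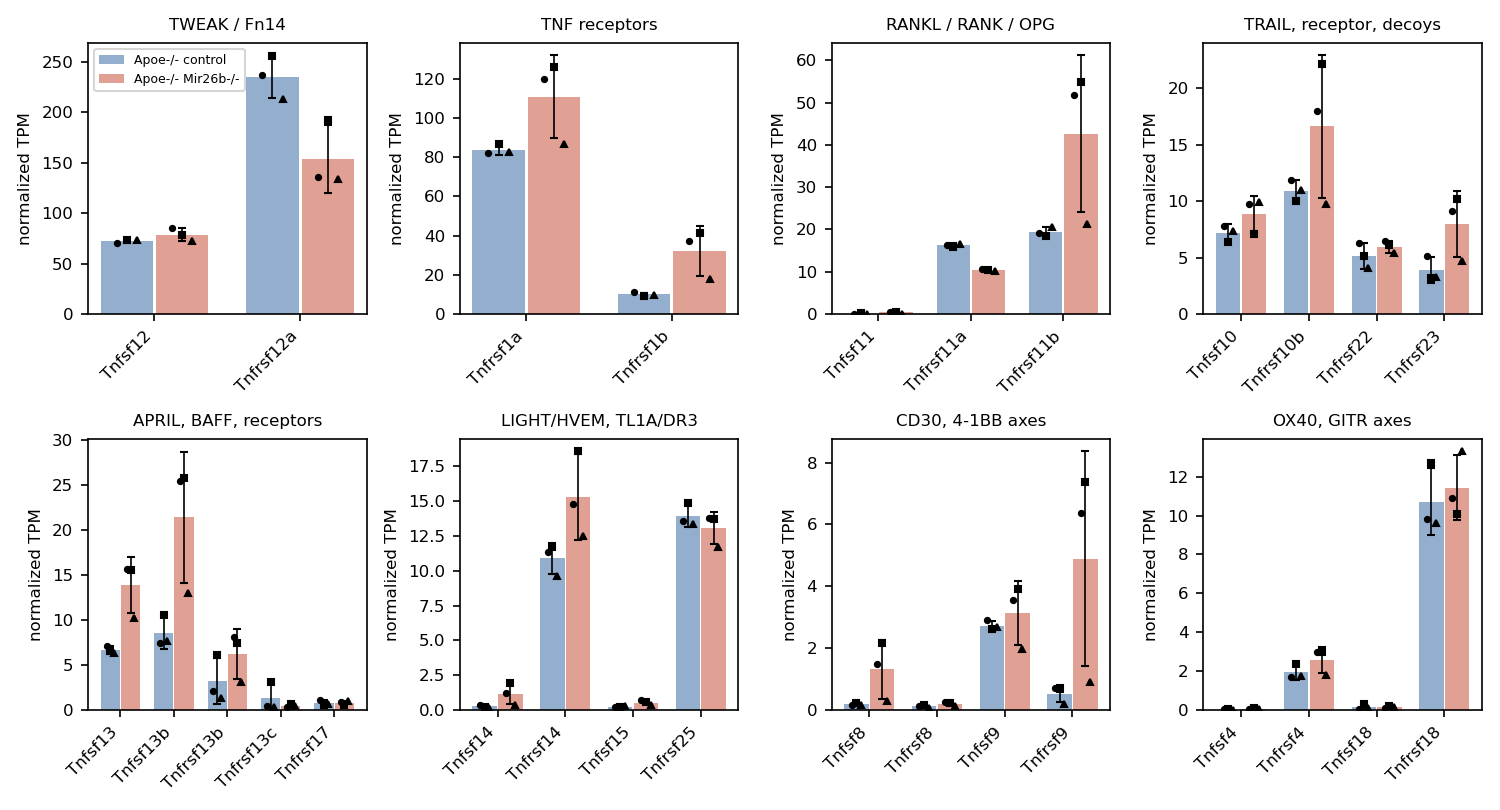
Normalized TPM of ligands and receptors grouped by axis; bars are the means of 3 control (blue) and 3 knockout (red) libraries with the SD, and black circles, squares and triangles are replicates 1, 2 and 3. Each panel has its own scale from 0, with Tnfrsf12a at 235 TPM in controls and 154 TPM in knockouts, and RANKL near 0.

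Tnfrsf21, encoding death receptor 6, rose as well. The gene (ENSMUSG00000023915, chromosome 17, 43016555 to 43089189) stood at 6.35, 5.86 and 5.31 CPM in the controls and 16.1, 17.1 and 8.33 CPM in the knockouts. No knockout overlapped the controls, and the 2.37-fold rise had a log2 difference of 1.24 (SE 0.27, edgeR adjusted p = 0.0400), and 1.504 without knockout replicate 3. Tnfrsf19, encoding TROY, stood at 3.95, 3.38 and 4.09 CPM in the controls and 2.75, 2.45 and 3.98 CPM in the knockouts (log2 difference -0.32, SE 0.21, edgeR adjusted p = 0.355). Its lowest values were in knockout replicates 1 and 2.

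Among pairs known for co-stimulation of lymphocytes, the folds were large in 2 knockouts at low levels. Tnfrsf9, the receptor 4-1BB of activated T cells and other leukocytes, stood at 0.605, 0.749 and 0.266 CPM in the controls and 6.85, 7.38 and 0.947 CPM in the knockouts. Its fold was 9.34, at a log2 difference of 3.22 (SE 0.80, edgeR adjusted p = 0.0519). Tnfsf8, the CD30 ligand, stood at 0.359, 0.557 and 0.399 CPM in the controls and 3.500, 5.201 and 0.701 CPM in the knockouts, 7.12-fold (log2 difference 2.83, SE 0.71, edgeR adjusted p = 0.0524). For both, knockout replicate 3 lay just above the highest control, neither was called by edgeR in the fit of all libraries, and both were called without knockout replicate 3, at log2 differences of 3.71 and 3.30 (edgeR adjusted p of 0.00103 and 0.000733). Of the alternatives that kept every library, 5 of 13 called Tnfrsf9 and 3 of 12 called Tnfsf8. Their partners had smaller differences. Tnfsf9, the 4-1BB ligand, had a log2 difference of 0.18 (SE 0.26, edgeR adjusted p = 0.688), and Tnfrsf8, CD30 itself, one of 0.82 (SE 0.41, edgeR adjusted p = 0.227).

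LIGHT, a ligand of activated T cells that also acts on stromal cells, showed the same order of the 3 knockouts. Tnfsf14, which encodes it, stood at 0.378, 0.269 and 0.190 CPM in the controls and 1.29, 2.05 and 0.417 CPM in the knockouts (log2 difference 2.16, SE 0.60, edgeR adjusted p = 0.0667), and its receptor HVEM, Tnfrsf14, at 5.76, 5.94 and 5.002 CPM in the controls and 8.07, 8.58 and 6.36 CPM in the knockouts (log2 difference 0.46, SE 0.14, edgeR adjusted p = 0.0855). Neither pair of groups overlapped. Neither gene was called by edgeR in the fit of all libraries, while 2 of 12 alternatives that kept every library called Tnfsf14 and 1 of 13 called Tnfrsf14. Tnfsf15, the endothelial cytokine TL1A, stood at 0.397, 0.442 and 0.666 CPM in the controls and 1.46, 1.16 and 0.720 CPM in the knockouts (log2 difference 1.15, SE 0.34, edgeR adjusted p = 0.0737). Its receptor DR3, Tnfrsf25, was lower in each knockout than in each control, at 8.24, 8.53 and 8.63 CPM in the controls and 7.52, 7.74 and 6.63 CPM in the knockouts (log2 difference -0.21, SE 0.10, edgeR adjusted p = 0.185). The 10 T cell markers summed to 17.6, 22.9 and 8.04 CPM in the controls and 22.98, 32.3 and 13.8 CPM in the knockouts, with overlapping groups. Tnfrsf18, the receptor GITR of regulatory T cells, stood at 4.91, 6.51 and 5.21 CPM in the controls and 5.48, 5.22 and 6.55 CPM in the knockouts (log2 difference 0.05, SE 0.15, edgeR adjusted p = 0.847), and 21.9% of its 31-base words are shared with the antisense gene Gm16008. OX40, Tnfrsf4, averaged 0.864 ± 0.180 in controls against 1.06 ± 0.263 CPM in knockouts (log2 difference 0.29, SE 0.26, edgeR adjusted p = 0.501), and the GITR ligand Tnfsf18 had 5 to 19 counts in controls and 7 to 12 in knockouts.

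Members differed in the order of the knockouts. Knockout replicate 3 was the lowest of the knockouts in 23 of 30 tested members, where it was lowest in 43.1% of all tested genes. On the log2(CPM + 0.5) scale, Tnfsf13b stood 1.55, 1.66 and 0.66 above the control mean in knockout replicates 1, 2 and 3, Tnfrsf1b 1.84, 2.004 and 0.77, and the sum of the macrophage markers 2.24, 2.38 and 1.001. Summed markers of several other cells had the same order of the knockouts. They stood at 2.12, 2.69 and 0.48 for neutrophils and 0.81, 0.81 and 0.40 for fibroblasts. The T cell sum stood at 0.61, 1.09 and -0.10 and the plasma cell sum at 0.85, 0.97 and -0.05. The median log2 difference of the 4 plasma cell markers was -2.06, so that sum does not stand for its single markers. The summed dendritic cell and lymphatic endothelium markers were lowest in knockout replicate 3 too. Single markers of these lists did not all share that order. Flt4 stood at 16.9, 18.6 and 21.0 CPM and Zbtb46 at 22.5, 24.9 and 25.4 CPM in knockout replicates 1, 2 and 3. Other orders were seen in the sums for endothelium (0.07, -0.01 and 0.18), B cells (-1.33, -0.72 and -1.08) and natural killer cells (1.412, 1.409 and 1.069). The part of any of these cells in the member values was not tested. RANK had another order, at -0.80, -0.72 and -0.72, with the 3 knockouts together. Smooth muscle markers stood at -0.54, -0.63 and -0.39, and white fat markers at -1.59, -0.84 and 0.21. TRAIL stood at 0.39, 0.02 and 0.42, so it did not share the macrophage order.

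**Figure D4:**
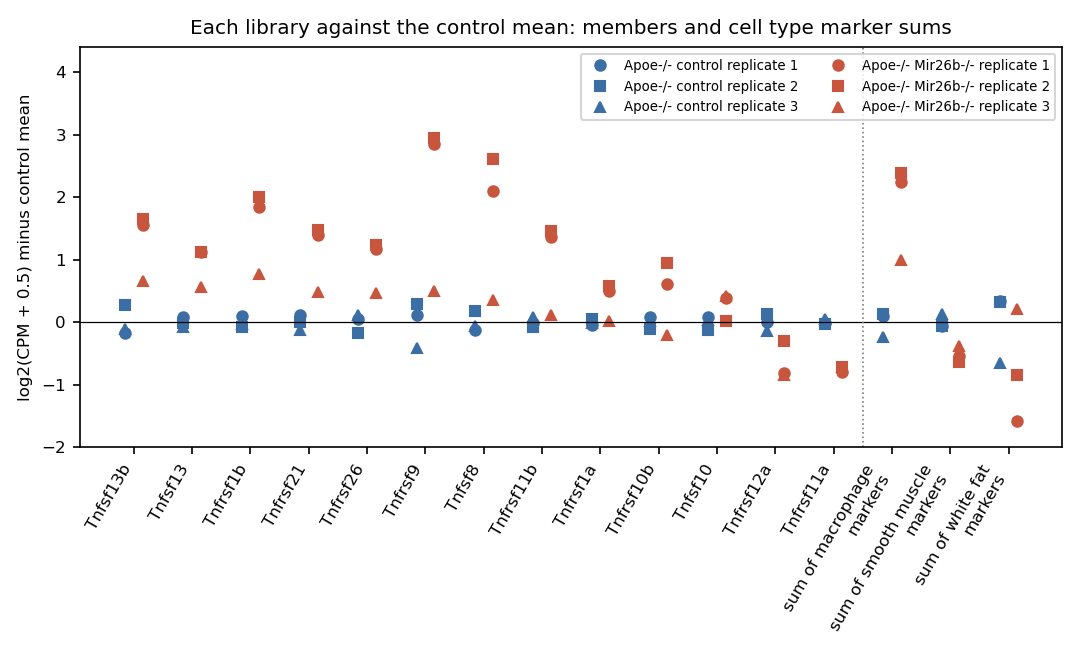
Log2(CPM + 0.5) of each library minus the control mean for 13 members and, right of the dotted line, for the summed markers of macrophages, smooth muscle and white fat; blue controls, red knockouts, symbol shapes for replicates. The red triangle (knockout replicate 3) lies between the groups for Tnfsf13b, Tnfrsf1b and the macrophage markers, at 0.66, 0.77 and 1.001, and with the other knockouts for Tnfrsf11a, at -0.72.

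Promoter letters of the members were compared with the values, since NF-κB and interferon-regulated factors are known to act on family genes. Sequences from 250 bases before to 50 bases after a start site were in the RefSeq table (GRCm38.p6) for 24 of 31 members. The motif GAAA, 2 bases of any kind, GAAA, a core of elements bound by interferon regulatory factors, was searched on both strands and was present for 4 of these 24, where 3.99% of 27025 genes had it in a promoter. They were Tnfsf13b and Tnfrsf1b, which rose, and Tnfrsf14 and Tnfrsf17, which edgeR did not call. The matches of the pair that rose lie at chr8:10006617-10006626 (on the strand of the gene) and chr4:145246871-145246880 (opposite to the gene), each within 20 bases of a start site, and are printed in the direction of the motif with the motif in capitals.
Tnfsf13b: tacaaaaactGAAAGTGAAAtgcggaaggc
Tnfrsf1b: gctggtgactGAAAGCGAAAccctcaggcc
The κB consensus motif, searched in the same way, was present for 3 of 24 members (Tnfrsf8, Tnfrsf9 and Tnfrsf25), where 9.55% of genes had it. The match of Tnfrsf9, the member with the largest fold, lies at chr4:150927957-150927966, with the letters of the gene's strand, and the other strand fits the motif there too.
Tnfrsf9: agagcagctgGGGATTTCCCaggaggccct
None of these letters shows a bound factor. The other members among the 24 lack these letters in this window, and members without a promoter sequence were not searched.

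Genes of the same pathways with other names were read in the same fit. Of the 7 ligands (Tnf, Lta, Ltb, Fasl, Cd40lg, Cd70 and Eda) 3 had enough counts to be tested, and edgeR called 0 (0 at an unadjusted p under 0.05, and 0 by DESeq2). Of 8 receptors 1 rose, Eda2r, the ectodysplasin A2 receptor, from 4.94 ± 0.305 to 7.75 ± 0.809 CPM (log2 difference 0.65, SE 0.12, edgeR adjusted p = 0.0313). Beside these counts, 6.50% of all tested genes were called higher and 3.84% lower. Fas, the death receptor, averaged 70.1 ± 3.92 in controls against 61.4 ± 4.01 CPM in knockouts, lower in each knockout than in each control (log2 difference -0.19, SE 0.07, edgeR adjusted p = 0.119). Relt, a receptor of lymphoid tissue, had a log2 difference of 1.48 (SE 0.37, edgeR adjusted p = 0.0531) and Cd40 one of 0.54 (SE 0.22, edgeR adjusted p = 0.151). The medians of the 2 lists were -0.01 and 0.33.

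Adaptors and enzymes next to the receptors differed little as a list. Of 29 such genes, measured in 30 rows because Traf5 has 2 rows of equal values, 2 rose and 0 fell by edgeR (5 rows negative at an unadjusted p under 0.05, and the 2 rows of Traf5 called lower by DESeq2), at a median log2 difference of 0.05. The share that rose, 2 of 30 rows, was near the 6.50% of all genes called higher, and 3.84% of all genes were called lower. Traf1, an NF-κB-induced adaptor of TNF receptor 2, rose from 5.43 ± 1.13 to 12.5 ± 3.23 CPM (log2 difference 1.202, SE 0.24, edgeR adjusted p = 0.0341). Mlkl, the effector of necroptosis, rose from 7.04 ± 0.986 to 12.5 ± 1.85 CPM (log2 difference 0.83, SE 0.15, edgeR adjusted p = 0.0322). Casp8, the initiator caspase of death receptors, had a log2 difference of 0.53 (SE 0.14, edgeR adjusted p = 0.0549), and Traf5 one of -0.26 (SE 0.07, edgeR adjusted p = 0.0549). For Traf1 and Mlkl the groups did not overlap.

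In the list of NF-κB subunits and feedback genes 4 of 17 rose and 0 fell by edgeR (0 negative at an unadjusted p under 0.05, and 0 called lower by DESeq2), at a median of 0.52. Beside them, 6.50% of all genes were called higher and 3.84% lower. The co-regulator Nfkbiz rose from 38.5 ± 2.86 to 70.1 ± 5.06 CPM (log2 difference 0.87, SE 0.08, edgeR adjusted p = 0.00945), the TNF-induced gene Tnfaip2 3.68-fold, Tnip3 3.47-fold and Tnfaip3, encoding the feedback inhibitor A20, 2.12-fold. Of the 5 subunit genes none was called by edgeR, and 2 had an unadjusted p under 0.05, with 0 called by DESeq2. Their log2 differences were 0.56 (SE 0.22, edgeR adjusted p = 0.140) for Rel, 0.39 (SE 0.14, edgeR adjusted p = 0.114) for Relb, 0.31 (SE 0.16, edgeR adjusted p = 0.238) for Nfkb2, 0.08 (SE 0.07, edgeR adjusted p = 0.454) for Nfkb1 and 0.05 (SE 0.06, edgeR adjusted p = 0.608) for Rela. All were positive with overlapping groups. The summed list stood 0.60, 0.67 and 0.17 above the control mean in knockout replicates 1, 2 and 3 on the log2(CPM + 0.5) scale, again lowest in knockout replicate 3. Nfkbiz did not share this order, at 64.8, 74.9 and 70.5 CPM in those libraries.

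Genes of osteoclast-type cells, known as targets or markers of RANK signalling and shared with lipid-laden macrophages, were mostly not lower. Of 10 tested, 4 rose and 1 fell, where 6.50% and 3.84% of all genes did. Atp6v0d2, a proton pump subunit, rose from 5.92 ± 2.94 to 67.6 ± 42.3 CPM (log2 difference 3.51, SE 0.66, edgeR adjusted p = 0.0325), the acid phosphatase gene Acp5 rose 2.67-fold, the protease gene Ctsk 1.68-fold and Tm4sf19 6.32-fold. Itgb3, an integrin subunit that smooth muscle and platelets also make, fell from 234 ± 23.2 to 160.5 ± 16.99 CPM (log2 difference -0.55, SE 0.10, edgeR adjusted p = 0.0328). Nfatc1, the transcription factor induced by RANK, had a log2 difference of 0.08 (SE 0.11, edgeR adjusted p = 0.693), and Calcr did not pass the low-count filter. The median of the list was 0.62, and the macrophage markers, some of whose cells also make these genes, had a median of 1.67.

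**Figure D5:**
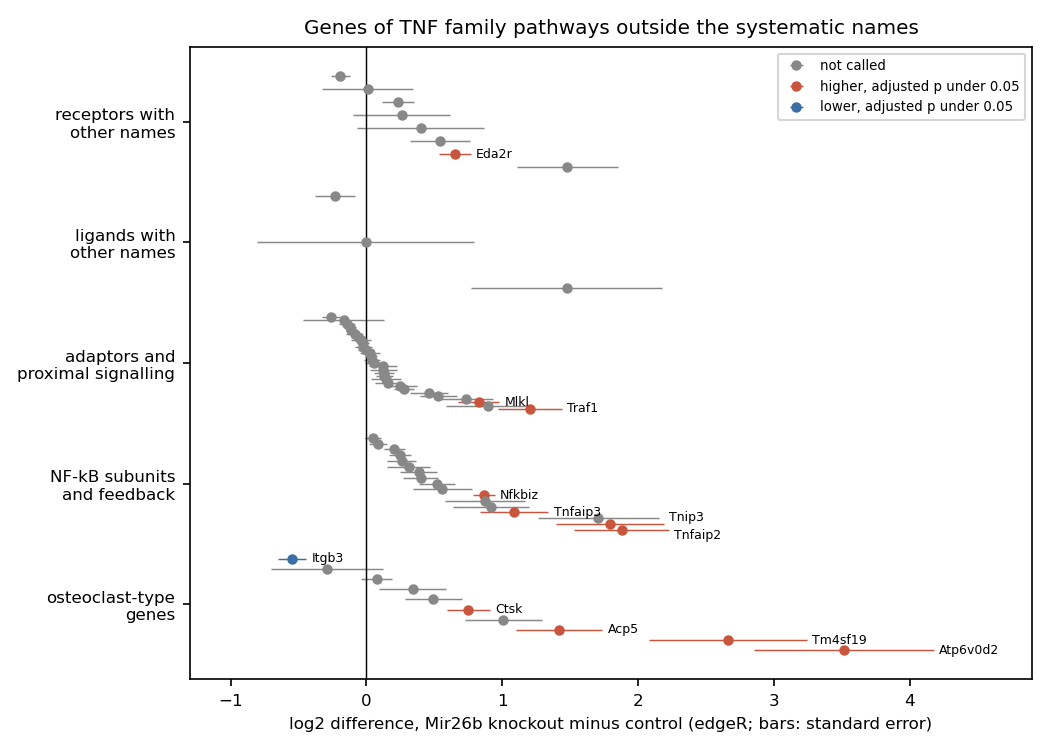
Log2 difference (knockout minus control) with its standard error from edgeR for tested pathway genes outside the systematic names, by list, each point 1 gene (Traf5 drawn once); named genes passed an adjusted p of 0.05. Adaptors crowd around 0, while the feedback and osteoclast-type lists reach to Tnfaip2 and Atp6v0d2 at the right, and Itgb3 is the only named gene left of 0.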

How the data were processed

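RNA of 6 aorta libraries was read as gene tables. The submitters' processing notes list kallisto (0.46.2), Trim Galore (0.6.5), FastQC (0.11.8) and the build GRCm38. The authors deposited estimated counts that are not whole numbers. In each library their low values fall on multiples of a constant between 0.9004 and 1.0685, and 69.8% to 71.3% of them are whole (tolerance 0.02) once divided by it. The authors also deposited normalized TPM, treated as a signal because the columns sum to between 955527 and 1034723. How both were scaled is not given in the sources used here. The members and gene lists were chosen with earlier results of these data known.

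Counts were rounded. Low rows were removed by filterByExpr at 10 counts, TMM set the scaling, and the quasi-likelihood test of edgeR (4.0.16, R 4.3.3), tested on simulated data, gave p-values. Standard errors are the log2 difference divided by the root of F. Each member called or averaging at least 5 CPM is given in every library, and of each pathway list up to 4 genes of lowest p; others, the NF-κB subunits and Nfatc1 among them, were chosen after their values were seen. Alternatives were other scalings and filters, DESeq2 (1.42.0), limma (3.58.1), a replicate block, a fat covariate and omission of each library. Members under 1 CPM have the fewest counts and the least precision.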

Additional observations from a re-analysis of the deposited data

How the results depend on the processing

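With all libraries edgeR called 5 members higher and 1 lower (6.50% and 3.84% of all genes). It called 11 and 1 of the 73 rows of related pathway genes, not all of which were tested. DESeq2 called 12 and 2 members and 23 and 3 related genes (12.7% and 7.98% of all genes). Limma-voom called 2 members and 5 related genes higher (3.21% of all genes), limma on log2(TPM + 1) 1 and 3 (2.65%), and on log2(TPM + 0.1) 2 and 7 (3.69%). The fat covariate gave 0 members (8 at an unadjusted p under 0.05) and 1 related gene higher, and 0 related genes lower (6 at an unadjusted p under 0.05). With that covariate 0.770% of all genes were called higher and 0.673% lower. Lower members numbered 2 under median of ratios scaling, upper quartile scaling and no low-count filter (3.94%, 3.94% and 2.26% of all genes). Lower related genes numbered 3 above a mean of 1 on the log2 CPM scale (5.68% of all genes) and 2 with copies summed (3.90%). Leaving out 1 library gave, by edgeR, 0 to 16 members higher, 0 to 3 lower, 0 to 33 related genes higher and 0 to 3 lower, the upper values without knockout replicate 3. Those edgeR fits called 0.00% to 17.2% of all genes higher and 0.00% to 11.4% lower. DESeq2 then gave 7 to 16, 2 to 3, 13 to 33 and 1 to 4. In those DESeq2 fits 6.95% to 17.5% of all genes were called higher and 4.44% to 14.4% lower. The cause of these changes was not tested.

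Whether the replicate numbers pair the libraries was not settled, since deviations from a mean of 3 libraries hold little information on it. Same-number correlations were -0.19, 0.27 and 0.03, and those of unlike numbers ran from -0.22 to 0.20. With the replicate numbers as a block 6 members were higher, with Tnfrsf9 and Tnfsf14 added and Tnfrsf26 lost, and 2 were lower (7.45% and 4.02% of all genes). In that fit 13 and 1 related genes were called. Of the comparisons of single members with the fit of all libraries, 468 kept direction and call, 43 lost the call and 33 gained one. Another 14 changed sign, none of them called. The losses fell on Tnfrsf26 (10 of 19 alternatives), Tnfrsf21 (9), Tnfsf13b (9), Tnfrsf1b (7), Tnfsf13 (6) and Tnfrsf11a (2), the members called in that fit. For Tnfsf18 (-0.06) the log2 difference was 0.13 by limma-voom, 0.053 on log2(TPM + 0.1), 0.026 with the replicate block and 0.084 with the fat covariate, and -0.39 to 0.72 over left-out libraries. For Tnfsf9 it was -0.083 with the fat covariate and -0.015 to 0.42 over left-out libraries. Those ranges were -0.14 to 0.34 for Tnfrsf17 and -0.052 to 0.18 for Tnfrsf18.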
